A study of Rattus norvegicus with 20 samples.

Results

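The axon growth genes described here are 10 genes that dorsal root ganglion (DRG) neurons are known to use or switch on when a peripheral axon is damaged and regrows: Gap43, Stmn2, Stmn4, Tubb3, Tuba1a, Sprr1a, Reg3b, Csrp3, Ecel1, and Gadd45a. They were taken by symbol from a count table of 39747 genes, and all 10 were found. The table covers 20 DRG libraries from 14 female Sprague-Dawley rats, young adults by the study's methods, fed a soy oil diet (SOD, the control diet) or a fish oil-enriched diet (FOD) for 4 weeks before surgery and after it. In chronic constriction injury (CCI), the left sciatic nerve received 4 loose chromic gut ligatures. In sham surgery (CT), the same nerve was exposed and left untied, so that the sham rats share the skin and muscle wound with the CCI rats. Left DRG were sequenced from 4 sham (SOD-CT) and 3 injured (SOD-CCI) rats on soy oil and from 3 sham (FOD-CT) and 4 injured (FOD-CCI) rats on fish oil. Right DRG, from the uninjured side, were sequenced in all 3 SOD-CCI rats and in 3 FOD-CCI rats. CCI leaves part of the nerve's axons intact, and a whole ganglion holds neurons of cut and of spared axons together with satellite glia, Schwann cells, and macrophages. The study's text places the collection 1 week after CCI, while the deposited labels give 4 further weeks of diet; the files do not settle which holds for these libraries.

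Sensory neurons of the DRG can regrow a peripheral axon because damage to it starts a growth program in the cell body. The program supplies tubulin and microtubule regulators to the growth cone, adds membrane proteins of the growth cone itself, and switches on genes that are close to silent in the intact ganglion, among them stress and growth arrest genes. Part of the program is set in motion by the transcription factors Atf3, Jun, and Sox11 and by cytokine signaling through Stat3.

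Before the genes are described, 5 libraries must be set apart. Markers of spinal cord glia such as Olig2, Mog, and Aqp4 had a mean log2(CPM + 1) of 7.14 to 7.73 in 3 libraries, FOD-CT replicate 1, FOD-CCI replicate 1, and the right DRG of that same FOD-CCI rat, with 0 of the 7 markers undetected, against 0.41 to 1.82 in the other 17. Skeletal muscle markers took 11.8% of all counts in SOD-CT replicate 1 and 2.52% in FOD-CT replicate 2, and at most 0.888% in the other 18. Totals ran from 22547190 to 54437581 counts per library, and the 12 pan-neuron markers had a mean log2(CPM + 1) of 6.89 to 9.27, the lowest in the right DRG of FOD-CCI replicate 1. CPM, a gene's counts scaled to a common library total, was computed on TMM effective library sizes throughout. Results that rest on these libraries are given with and without them. A comparison of left DRG drops only the left libraries of the 5. The libraries kept are not free of muscle markers, which took 0.670% of counts in SOD-CT replicate 4. In whole ganglia, fewer cells of a type and less RNA per cell cannot be told apart.

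**Figure D1:**
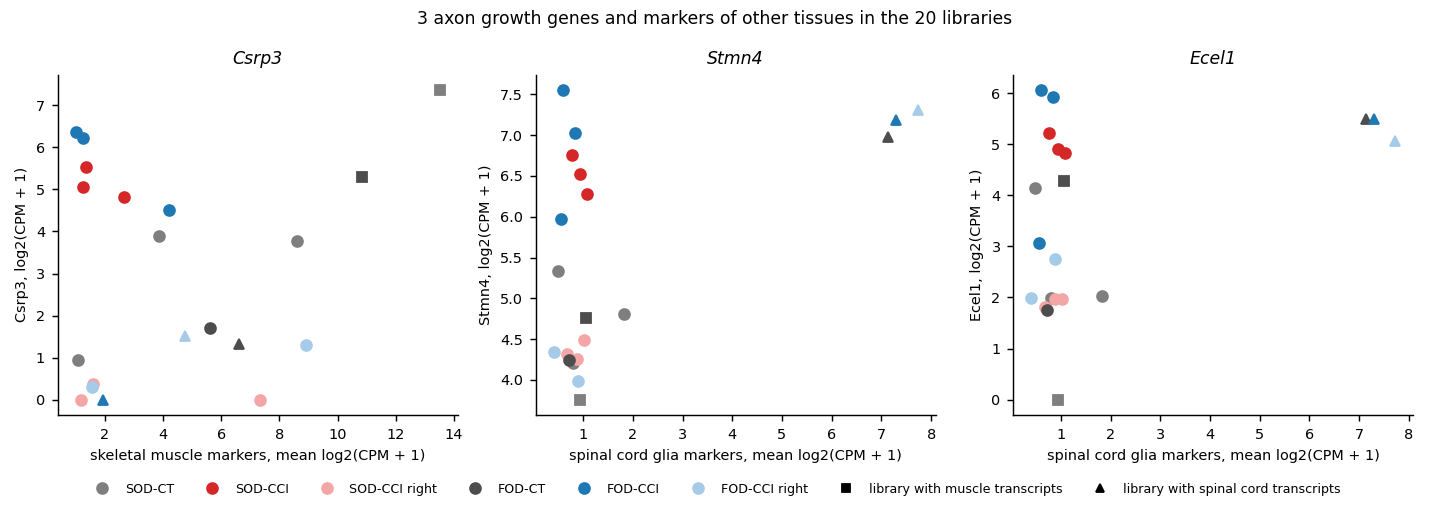
Marker transcripts of other tissues in the 20 DRG libraries. Each point is a library. Horizontal axes give the mean log2(CPM + 1) of the marker list named on them, and vertical axes the log2(CPM + 1) of Csrp3, Stmn4, or Ecel1. For spinal cord glia, 3 libraries sit between 7.14 and 7.73 and all others at or below 1.82. SOD-CT replicate 1 has the highest muscle level.

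The 10 genes span levels from nearly silent to among the abundant transcripts of the ganglion. Compared per length, in FPKM, the median over the 7 sham libraries was 2686 for Tuba1a, 1463 for Tubb3, and 1302 for Stmn2. Tuba1a and Tubb3 are subunits of the neuronal microtubule and Stmn2 a regulator of its assembly. Gap43 followed at 123 FPKM, Gadd45a at 30.8, Stmn4 at 18.0, and Csrp3 at 14.6. Reg3b at 1.03, Sprr1a at 0.626, and Ecel1 at 0.388 FPKM closed the order. The ranges of neighbors in this order overlapped across the sham libraries, apart from Stmn2 at 527 to 1465 FPKM above Gap43 at 93.4 to 195, and Gap43 above Gadd45a at 21.1 to 49.1. In the 7 left CCI libraries the 10 medians came in that same order, from 3427 FPKM for Tuba1a through 426 for Gap43 to 18.9 for Reg3b, 11.9 for Sprr1a, and 4.67 for Ecel1.

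**Figure D2:**
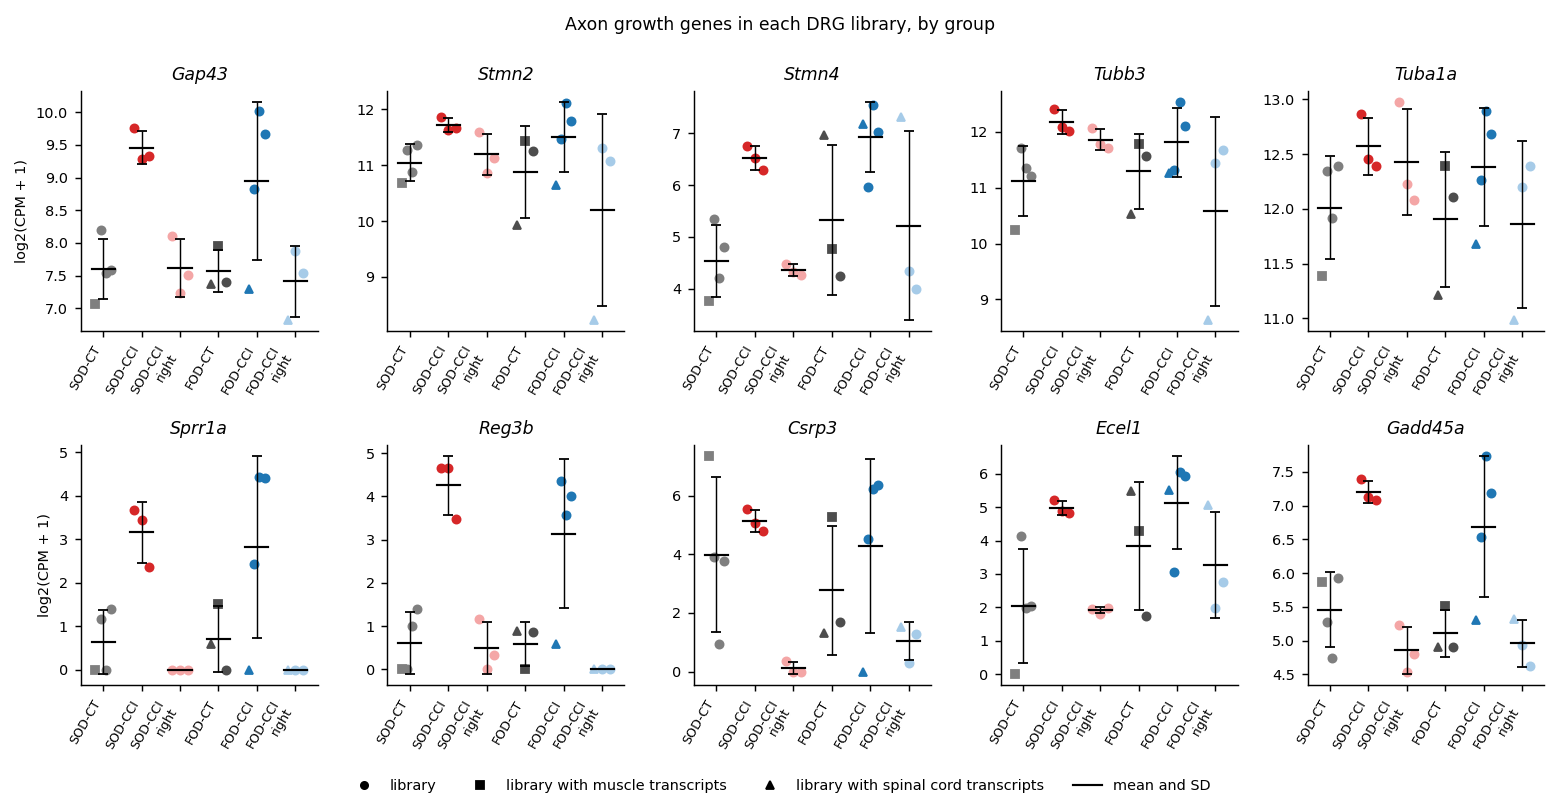
Levels of the 10 axon growth genes in each of the 20 libraries, as log2(CPM + 1), by group. Points are libraries, the horizontal line is the mean and the bar 1 SD of the log2 values, squares mark libraries with muscle transcripts and triangles those with spinal cord transcripts, and each panel has its own axis range. The SOD-CCI libraries lie above all SOD-CT libraries for 8 genes, and FOD-CCI replicate 1 lies low for Gap43, Sprr1a, Reg3b, Csrp3, and Gadd45a.

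To examine how the left DRG changed after CCI, the genes were followed by role, beginning with the growth cone. Gap43, a membrane-bound phosphoprotein of growth cones and a classic marker of regenerating axons, was measured at 134, 293, 185, and 191 CPM in SOD-CT and at 863, 625.5, and 641.5 CPM in SOD-CCI. It was at 165.5, 246, and 168 CPM in FOD-CT and at 155, 453, 1033, and 811 CPM in FOD-CCI replicates 1 to 4. All CCI libraries other than FOD-CCI replicate 1 were above all 7 sham libraries, and FOD-CCI replicate 1 was below every FOD-CT library. Group means were 709.9 ± 132.6 CPM (SD, n = 3) in SOD-CCI and 200.6 ± 66.9 CPM (SD, n = 4) in SOD-CT, a 3.54-fold ratio, and 613.0 ± 387.5 (n = 4) and 193.2 ± 45.5 CPM (n = 3) on FOD, a 3.17-fold ratio. Averaged over diets, the log2 fold change was 1.76 (SE 0.34), with an adjusted p of 0.101 by edgeR's quasi-likelihood test with Benjamini–Hochberg adjustment, just past the limit of 0.1 used for a call.

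Gadd45a, a stress- and growth arrest-induced gene known to rise in injured sensory neurons, followed the same pattern. It was at 57.4, 37.9, 25.9, and 60.01 CPM in SOD-CT and at 166, 139, and 135 CPM in SOD-CCI. It was at 28.9, 44.6, and 29.1 CPM in FOD-CT and at 38.5, 91.9, 213, and 144 CPM in FOD-CCI. As with Gap43, only FOD-CCI replicate 1 of the 7 left CCI libraries overlapped the sham libraries. The log2 fold change averaged over diets was 1.78 (SE 0.32, edgeR adjusted p = 0.101).

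The stathmins bind tubulin dimers and tune microtubule assembly. Stmn2 (SCG10), the neuronal stathmin of growing axons, ranged from 1636 to 2627 CPM in SOD-CT and from 3155 to 3726 in SOD-CCI, without overlap. On FOD it ranged from 973 to 2777 CPM in sham and from 1602 to 4460 in CCI DRG, where the lowest library of each group was replicate 1. Stmn4, a second neuronal stathmin, was at 12.5, 39.5, 17.5, and 27.1 CPM in SOD-CT and at 107, 91.3, and 76.8 CPM in SOD-CCI. The SOD groups were thus apart, whereas in FOD-CT Stmn4 was at 125, 26.0, and 17.9 CPM and in FOD-CCI at 145, 61.8, 187, and 129 CPM, so that FOD-CT replicate 1, a library with spinal cord markers, overlapped the CCI libraries. Averaged over diets, log2 fold changes were 0.64 (SE 0.27, edgeR adjusted p = 0.382) for Stmn2 and 1.58 (SE 0.42, adjusted p = 0.167) for Stmn4.

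The tubulins form the microtubule itself. Tubb3, the neuronal class III β-tubulin, ranged from 1212 to 3336 CPM in SOD-CT and from 4124 to 5455 in SOD-CCI, without overlap, and from 1473 to 3514 CPM in FOD-CT and from 2456 to 5949 in FOD-CCI, with overlap. Tuba1a, the α-tubulin that predominates in growing neurons, overlapped in both diets, with 2676 to 5381 CPM in SOD-CT against 5365 to 7453 in SOD-CCI, and 2373 to 5374 in FOD-CT against 3266 to 7604 in FOD-CCI. Their log2 fold changes averaged over diets were 0.76 (SE 0.29, edgeR adjusted p = 0.338) and 0.51 (SE 0.26, adjusted p = 0.468), which with those of Stmn2 and Csrp3 were the smallest of the 8 members that could be fitted.

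Sprr1a, a small proline-rich protein of the epidermal cornified envelope that injured sensory neurons also make, and Reg3b, a secreted C-type lectin first described as pancreatitis-associated protein, were close to silent without CCI. Sprr1a was at 0, 1.25, 0, and 1.61 CPM in SOD-CT and at 11.7, 9.79, and 4.14 CPM in SOD-CCI. It was at 0.507, 1.83, and 0 CPM in FOD-CT and at 0, 4.42, 20.5, and 20.2 CPM in FOD-CCI. Every CCI library other than FOD-CCI replicate 1 was above all 7 sham libraries. Reg3b was at 0, 0, 1.02, and 1.65 CPM in SOD-CT against 24.2, 24.0, and 10.1 CPM in SOD-CCI, and at 0.845, 0, and 0.816 CPM in FOD-CT against 0.507, 19.6, 10.9, and 15.0 CPM in FOD-CCI. The same holds for Reg3b: 6 of 7 CCI libraries stood above all sham libraries. Ratios of CCI to sham group means were 11.9-fold (SOD) and 14.5-fold (FOD) for Sprr1a, and 29.2-fold and 20.8-fold for Reg3b. These ratios rest on few sham counts: chosen after seeing the data, leaving out SOD-CT replicate 4 gave 20.4-fold for Sprr1a and 57.4-fold for Reg3b on SOD, and leaving out FOD-CT replicate 2, a library with muscle markers, gave 44.5-fold for Sprr1a on FOD. Neither gene reached 10 counts in enough libraries to enter the fit across all genes, and reads that also match a close paralog may have been assigned to either gene, since the handling of multiply aligned reads is not stated. Of the paralogs, Reg3a had 335 to 1134 counts in the left CCI libraries other than FOD-CCI replicate 1, which had 6, and at most 78 in the sham libraries. Sprr2d, Sprr3, and Sprr4 had 0 counts in all 20 libraries.

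Promoters of 6 of the 10 genes could be matched by gene ID to RefSeq (build GRCr8), which gave 250 bases before and 50 after the start site. The 250 bases before the start are shown for Sprr1a and Reg3b, near silence without injury, and for Tubb3, abundant throughout. Ecel1, with the lowest sham median in FPKM, was also matched and is not shown. Capitals mark the AP-1 motif (TGANTCA, N being any base), the TATA box (TATAAA), and the GC box (GGGCGG), searched on both strands. The E-box core (CANNTG) was searched but is not capitalized.
Sprr1a, chr2:180752626-180752875, minus strand: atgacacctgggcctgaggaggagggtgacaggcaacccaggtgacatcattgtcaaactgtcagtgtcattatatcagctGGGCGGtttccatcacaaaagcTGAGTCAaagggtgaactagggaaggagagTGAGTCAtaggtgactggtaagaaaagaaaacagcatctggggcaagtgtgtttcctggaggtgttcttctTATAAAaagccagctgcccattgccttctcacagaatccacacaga
Reg3b, chr4:112419526-112419775, plus strand: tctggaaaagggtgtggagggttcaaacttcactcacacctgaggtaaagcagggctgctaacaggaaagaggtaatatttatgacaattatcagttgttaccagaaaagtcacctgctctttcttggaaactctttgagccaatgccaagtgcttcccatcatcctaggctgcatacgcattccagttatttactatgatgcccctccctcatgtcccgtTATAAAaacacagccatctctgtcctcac
Tubb3, chr19:68365437-68365686, plus strand: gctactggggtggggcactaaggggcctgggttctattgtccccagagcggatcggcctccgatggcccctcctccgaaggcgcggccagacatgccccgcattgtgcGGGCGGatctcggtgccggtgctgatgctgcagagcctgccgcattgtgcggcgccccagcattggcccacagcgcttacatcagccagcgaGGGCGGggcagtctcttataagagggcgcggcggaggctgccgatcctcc
Counted from the start site, Sprr1a carried 2 AP-1 motifs whose first bases lie at −147 and −117, a TATA box at −46, and a GC box at −169. Reg3b carried a TATA box at −29, and Tubb3 carried 2 GC boxes at −142 and −50. Sprr1a alone of the 6 held an AP-1 motif in the 300 bases, against 7.33% of all 33469 promoters of that length. A TATA box was found in 14.2% of all promoters, a GC box in 33.1%, and an E-box in 72.1%. E-boxes numbered 7 in the Sprr1a window, 4 in Reg3b, and 0 in Tubb3. Ecel1 held 4 E-boxes and 0 AP-1 motifs, 0 TATA boxes, and 0 GC boxes. Tuba1a and Gadd45a each held 1 GC box, 1 E-box, and 0 TATA boxes. These matches describe letters in the reference and were not tested for binding.

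Csrp3, the muscle LIM protein of striated muscle, which sensory neurons are also known to make after axon damage, varied widely across the sham rats. It was at 164, 13.95, 0.922, and 12.6 CPM in SOD-CT and at 45.6, 32.5, and 27.1 CPM in SOD-CCI. It was at 1.49, 38.1, and 2.24 CPM in FOD-CT and at 0, 21.8, 73.5, and 81.7 CPM in FOD-CCI. The highest sham values were in SOD-CT replicate 1 and FOD-CT replicate 2, the libraries with 11.8% and 2.52% of counts in muscle markers. In the 7 left CCI libraries muscle markers took 0.0108% to 0.0397% of counts. In SOD-CT replicates 2 and 4, with 13.95 and 12.6 CPM of Csrp3, they took 0.0362% and 0.670%. Their mean log2(CPM + 1) was 3.85 and 8.60 there, against 1.23 to 2.67 in SOD-CCI and 1.00 to 4.19 in FOD-CCI. FOD-CT replicates 1 and 3, with 1.49 and 2.24 CPM of Csrp3, were at 6.60 and 5.61 on that scale. The part of muscle transcripts in these values was not tested. With all libraries, Csrp3 had a log2 fold change of −0.43 (SE 1.58, edgeR adjusted p = 0.923) on SOD and 1.69 (SE 1.65, adjusted p = 1.00) on FOD, and the SOD value became 1.94 when SOD-CT replicate 1 was left out.

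Ecel1, an endopeptidase-like membrane protein known as damage-induced neuronal endopeptidase, was at 0, 16.7, 2.99, and 3.10 CPM in SOD-CT and at 36.3, 28.8, and 27.5 CPM in SOD-CCI. It was at 44.1, 18.3, and 2.37 CPM in FOD-CT and at 44.2, 7.36, 65.7, and 59.7 CPM in FOD-CCI. The SOD groups did not overlap and the FOD groups did, with FOD-CT replicates 1 and 2 above FOD-CCI replicate 2. The log2 fold change averaged over diets was 1.74 (SE 0.79, edgeR adjusted p = 0.422). Ecel1 and Stmn4 were both high in each of the 3 libraries with spinal cord markers, sham, CCI, and right alike, at 32.3 to 44.2 CPM for Ecel1 and 125 to 157 CPM for Stmn4. The part of spinal cord transcripts in these values was not tested.

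Counted together, every SOD-CCI library was above every SOD-CT library for 8 of the 10 genes, the exceptions being Tuba1a and Csrp3, while 9.56% of the 14484 genes tested had that separation. On FOD, 0 of 10 genes separated (2.31% of all genes). Without FOD-CCI replicate 1, 5 genes separated on FOD: Gap43, Stmn2, Sprr1a, Gadd45a, and Reg3b (8.97% of all genes). Those same 5 genes also had SOD-CCI and FOD-CCI replicates 2 to 4 above all 7 sham libraries, a pattern of 1.71% of all genes. Sprr1a and Reg3b, counted in the 8 and in the 5, had too few counts to be among the 14484 genes of these shares. Because the 10 genes were chosen with earlier results of these data known, counts above such shares, here and below, are not independent support.

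In the fit of the 14 left libraries, 8 of the 10 genes passed the filter of at least 10 counts in 13 libraries, Sprr1a and Reg3b not among them. A gene counted as called if its adjusted p did not exceed 0.1 and it changed by 1.2-fold or more. Averaged over diets, 0 of 14484 genes were called by edgeR (0%), the members included, 476 by DESeq2 (3.29%), and 2 by limma voom (0.0138%). All 8 members tested were higher after CCI, as were 48.8% of all genes, with a median log2 fold change of 1.17 against −0.01 over all genes, and 6 of them had an unadjusted p under 0.05, which 5.9% of all genes had in that direction. Gap43, Stmn4, and Gadd45a were called by DESeq2.
Without FOD-CCI replicate 1, Gap43 (log2 fold change 1.92) and Gadd45a (1.93) were called by edgeR, both at an adjusted p of 0.00356, along with 3.54% of all genes. Without the 5 libraries that held muscle or spinal cord transcripts, 6 members were called: Gap43 at 1.94, Stmn4 at 2.28, Csrp3 at 3.34, Ecel1 at 3.13, Gadd45a at 2.11, and Reg3b, among 3.67% of all genes. That fit keeps 1 FOD-CT library, replicate 3, which is assumed to vary like the other groups.

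**Figure D3:**
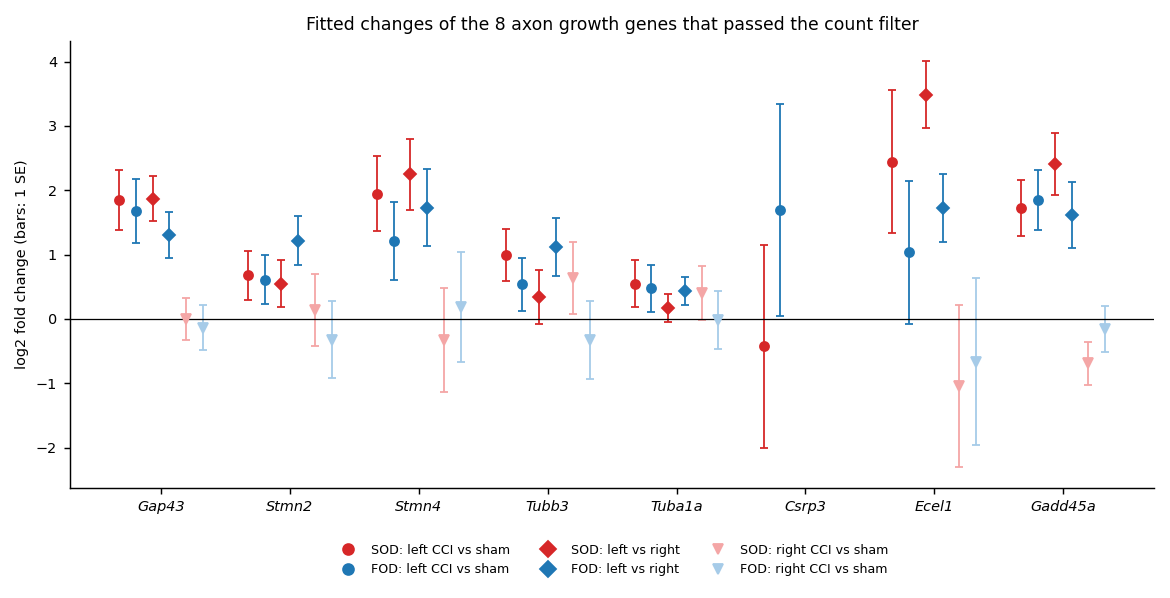
Log2 fold changes of the axon growth genes in the fits across all genes, with bars of 1 SE. Shown for each diet are left CCI against sham, left against right, and right CCI against sham DRG. For left CCI against sham, the 8 genes tested lie above 0 in both diets, apart from Csrp3 on SOD at −0.43.

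For single genes, including the pair outside the fit, an exact two-sided permutation test of the mean difference in log2(CPM + 1) was run with surgery labels permuted within each diet (1225 arrangements), without adjustment over the 20 such tests of the 10 genes. The mean difference was 3.10 for Reg3b (exact p = 0.00408) and 2.32 for Sprr1a (exact p = 0.0106). It was 1.62 for Gap43 (exact p = 0.00571), 1.66 for Gadd45a (exact p = 0.00327), and 1.80 for Stmn4 (exact p = 0.00490). Ecel1 at 2.12, Tubb3 at 0.78, and Stmn2 at 0.65 had exact permutation p-values of 0.0253, 0.0286, and 0.0359. Tuba1a at 0.52 (exact p = 0.0751) and Csrp3 at 1.33 (exact p = 0.299) did not fall below 0.05. With 1 left library left out (chosen after seeing the data), the exact p rose above 0.05 in 7 of 14 cases for Stmn2 and in 4 of 14 for Tubb3, to at most 0.133 and 0.0895, both without FOD-CT replicate 1. It did so in 2 of 14 cases for Ecel1, to at most 0.0724 without FOD-CT replicate 3. Without the 5 libraries, where 1 FOD-CT library remains, Tubb3 differed by 0.58 (exact p = 0.1), Tuba1a by 0.43 (exact p = 0.0625), and Stmn2 by 0.54 (exact p = 0.025). Csrp3 then differed by 3.14, and it and the other 6 genes had an exact p of 0.0125, the smallest that the remaining 80 arrangements allow.

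Whether the diets differed in this change was tested as an interaction, and 0 of 14484 genes were called by edgeR (725 had an unadjusted p under 0.05). The difference, FOD minus SOD, was −0.17 (SE 0.66) for Gap43, 0.12 (SE 0.62) for Gadd45a, and −0.74 (SE 0.82) for Stmn4 on the log2 scale. It was 2.12 (SE 2.28) for Csrp3 and −1.41 (SE 1.53) for Ecel1, and these standard errors leave room for differences of several fold in either direction. Between the CCI groups themselves, FOD-CCI against SOD-CCI, members ran from −0.27 for Tubb3 to 0.53 for Ecel1 with 0 genes called by edgeR (782 with an unadjusted p under 0.05). Between sham groups, FOD-CT against SOD-CT, 0 genes were called (491 with an unadjusted p under 0.05). Stmn4 was 1.25 higher on the log2 scale in FOD-CT (SE 0.58, edgeR adjusted p = 0.965), and the value was −0.13 without FOD-CT replicate 1.

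A second comparison set the left DRG against the right DRG of the same rat, which removes differences between rats. In the fit of 12 libraries with the rat as a block, 7 of the 10 genes could be tested, and 4 were called, all higher on the left: Gap43, Stmn4, Ecel1, and Gadd45a. Of the 14549 genes tested, 0.962% were called in either direction and 0.811% as higher on the left. Gap43 was higher by 1.58 on the log2 scale (SE 0.25, edgeR adjusted p = 0.0391) and Ecel1 by 2.61 (SE 0.37, adjusted p = 0.0310). Stmn4 was higher by 1.99 (SE 0.41, adjusted p = 0.0943) and Gadd45a by 2.01 (SE 0.35, adjusted p = 0.0589). Stmn2 at 0.88 (SE 0.26, adjusted p = 0.245), Tubb3 at 0.73 (SE 0.31, adjusted p = 0.410), and Tuba1a at 0.30 (SE 0.15, adjusted p = 0.505) were not called.

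Of the 4 genes called, Gap43 was at 275, 150.1, and 180.5 CPM in the right DRG of SOD-CCI rats and at 112, 233, and 186 in those of FOD-CCI rats, within or close to the sham range. Gadd45a was at 36.6, 22.1, and 26.9 CPM on the right in SOD-CCI rats and at 39.0, 29.5, and 23.7 in FOD-CCI rats. In each of these genes, all left CCI libraries other than FOD-CCI replicate 1 were above every right library. Stmn4 on the right was at 21.4, 19.0, and 18.1 CPM (SOD) and at 157, 19.3, and 14.9 CPM (FOD). Ecel1 on the right was at 2.91, 2.49, and 2.93 CPM (SOD) and at 32.3, 2.97, and 5.76 CPM (FOD). For both, the right DRG of FOD-CCI replicate 1, with spinal cord markers, stood far above the other 5 right libraries.

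Within rats, the log2 difference of Gap43, left minus right, was 1.65, 2.05, and 1.82 in SOD-CCI replicates 1 to 3 and 0.47, 0.96, and 2.47 in FOD-CCI replicates 1 to 3. For Ecel1 it was 3.26, 3.09, and 2.86 on SOD and 0.44, 1.07, and 3.30 on FOD. The SOD-CCI rats lay close together in both genes, and the FOD-CCI rats were spread, with replicate 1 the lowest and replicate 3 the highest. For Gadd45a the differences were 2.15, 2.59, and 2.29 on SOD and −0.02, 1.61, and 3.11 on FOD, and for Stmn4 they were 2.27, 2.21, and 2.03 on SOD and −0.12, 1.63, and 3.56 on FOD. The same order of the FOD-CCI rats, 1, 2, and 3 from low to high, held for these 4 genes.

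Sprr1a had 0 counts in all 6 right DRG. Against the limit that 3 counts over the 3 right libraries of a diet would set, its left mean was at least 290-fold higher on SOD and, over the 3 FOD-CCI rats with both sides, at least 208-fold higher on FOD. With 1 rat left out (chosen after seeing the data), these limits were 173-fold without SOD-CCI replicate 1, 191-fold without SOD-CCI replicate 2, and 37.1-fold without FOD-CCI replicate 3. Reg3b was at 1.25, 0, and 0.267 CPM in the right DRG of SOD-CCI rats, 38.4-fold below the left mean, and at 0 in those of the 3 FOD-CCI rats, at least 259-fold below the left mean of the same rats. The SOD ratio was 128-fold without SOD-CCI replicate 1 and 22.6-fold without SOD-CCI replicate 2, and the FOD limit was 93.0-fold without FOD-CCI replicate 2 and 169-fold without FOD-CCI replicate 3. Csrp3 on the right was at 0.294, 0, and 0 CPM (SOD) and at 1.86, 0.229, and 1.46 CPM (FOD). The right library with 1.46 CPM, FOD-CCI replicate 3, had the most muscle marker transcripts of the 6, at 0.888% of counts. Fitted fold changes of Sprr1a and Reg3b, at or near 0 counts in many libraries, depend on the software's prior and are not given.

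The tubulins and Stmn2 differed less between sides. Stmn2 had left minus right log2 differences of 0.27, 0.76, and 0.54 on SOD and 2.42, 0.17, and 1.05 on FOD. Tubb3 had 0.34, 0.30, and 0.30 on SOD and 2.63, −0.12, and 0.87 on FOD. In both, the highest rat was FOD-CCI replicate 1, whose right DRG held 298 CPM of Stmn2 and 395 CPM of Tubb3, each the lowest of all 20 libraries, and had the lowest pan-neuron level. Tuba1a ran from −0.12 in SOD-CCI replicate 1 to 0.69 in FOD-CCI replicate 1.

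Left exceeded right in 6 of 6 rats for Gap43, Stmn2, Ecel1, and Reg3b, and for 4.9% of all genes tested, which do not include Reg3b. Over the 64 sign changes of an exact two-sided test these 4 genes had p = 0.03125, the smallest that 6 rats allow. The other 6 genes were higher on the left in 5 of 6 rats, with an exact p of 0.0625, or 0.0938 for Tuba1a. Measured as a ratio to the pan-neuron markers, Stmn2 stayed at or below 0.05 in this test and Tubb3 fell below it (exact p = 0.03125 for both). Gap43, Ecel1, and Reg3b were then higher in 5 of 6 rats (exact p = 0.0625). Tuba1a was higher in 4 of 6 rats, with a mean log2 difference of 0.17 (exact p = 0.6875).

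**Figure D4:**
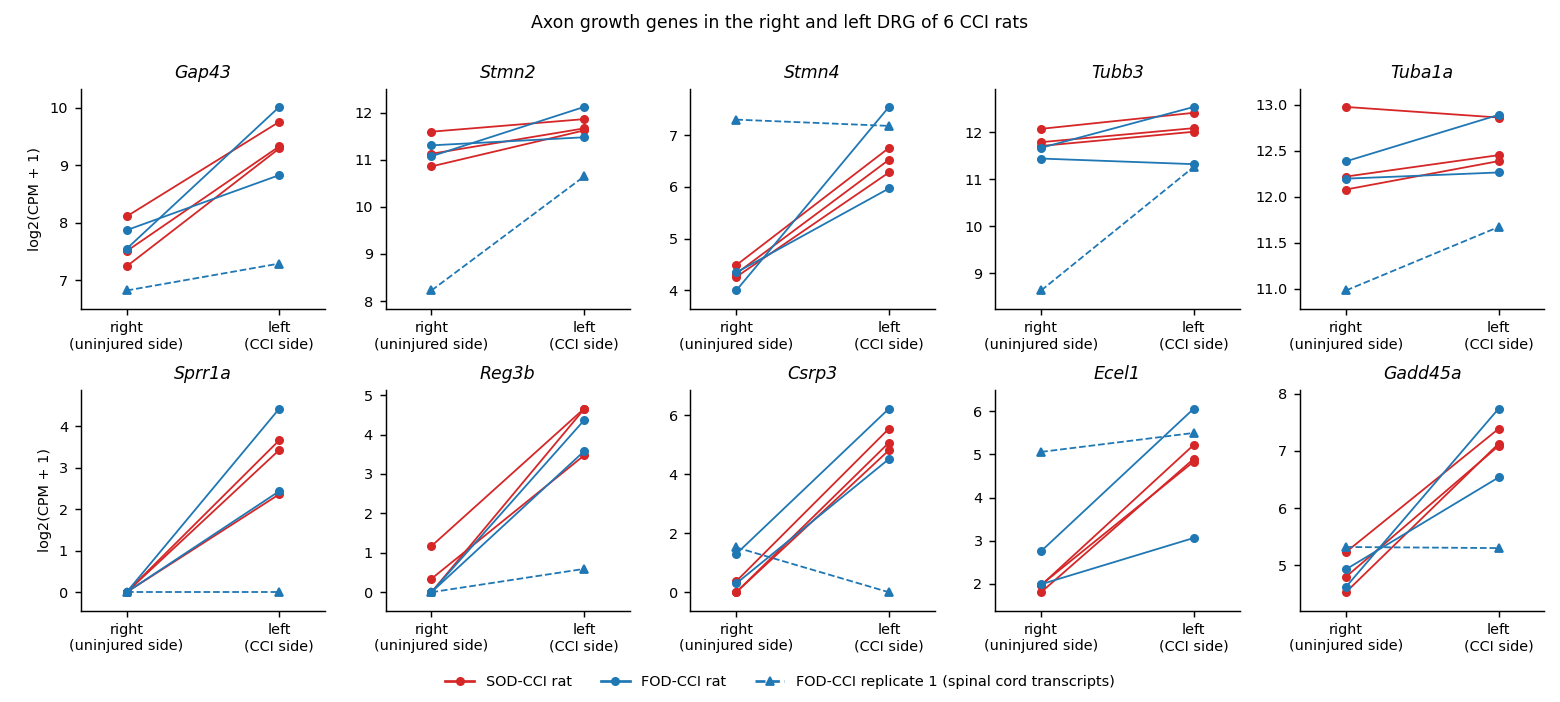
Levels of the 10 axon growth genes, as log2(CPM + 1), in the right and left DRG of 6 CCI rats. Each line joins the DRG of one rat (red SOD-CCI, blue FOD-CCI), the dashed line is FOD-CCI replicate 1, and panels have their own axis ranges; Sprr1a is at 0 on the right in every rat and above 0 on the left in 5.

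Leaving out FOD-CCI replicate 1 raised the number of members called in the averaged left to right comparison to 5, as Stmn2 joined at 0.58 (edgeR adjusted p = 0.0729), with 7.64% of all genes called. Leaving out any single SOD-CCI rat lowered it to 0 members, with 0.0542%, 0.0747%, and 0.0752% of all genes called without replicates 1, 2, and 3, and leaving out FOD-CCI replicate 2 lowered it to 2 (0.653%). Within SOD-CCI rats alone, 1 member was called, Ecel1 at 3.49 (SE 0.52, adjusted p = 0.0939), among 0.131% of all genes. Within FOD-CCI rats 0 members were called, among 0.0137% of all genes, with Gap43 at 1.299 (SE 0.36, adjusted p = 0.526) and Gadd45a at 1.61 (SE 0.51, adjusted p = 0.599). As for the left to right change between the diets, its difference was called for 0 genes by edgeR (424 with an unadjusted p under 0.05), and was −1.76 for Ecel1 (SE 0.71, adjusted p = 0.997).

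Markers of macrophages, which gather in DRG after nerve injury, moved with the side as well. All 10 macrophage markers were higher on the left, and Aif1 (log2 difference 1.42, edgeR adjusted p = 0.0342) and C1qb (1.55, adjusted p = 0.0995) were called. Their mean log2(CPM + 1) was 3.79 to 4.48 in SOD-CCI and 1.79 to 2.87 in the right DRG of those rats. In FOD-CCI replicates 1 to 3 it was 3.30, 4.98, and 4.41 on the left against 3.70, 3.41, and 3.98 on the right, so that replicate 1 was lower on the left. FOD-CCI replicate 4, without a right DRG, was at 5.54. The part of these cells in the levels of the axon growth genes was not tested. Of the 12 pan-neuron markers, 6 were higher on the left and 0 were called, with a median log2 difference of 0.02.

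The right DRG of injured rats were also compared with left sham DRG, where side and surgery cannot be told apart. By edgeR 0 of 14007 genes were called on either diet (998 on SOD and 238 on FOD with an unadjusted p under 0.05). Gap43 group means were 201.8 ± 65.1 CPM (SD, n = 3) in right SOD-CCI and 200.6 ± 66.9 CPM (SD, n = 4) in SOD-CT DRG. Gadd45a was lower by 0.69 on the log2 scale in right SOD-CCI DRG (SE 0.33, adjusted p = 0.690), and Tubb3 was higher by 0.64 (SE 0.56, adjusted p = 0.805). This comparison shares its right libraries with the left to right comparison and its sham libraries with the comparison of surgery.

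Related genes put the 10 members in context, and their lists were chosen with earlier results of these data known. A share above that of all genes is therefore not independent support. The lists were the other stathmins, tubulin isotypes, growth cone proteins, other regeneration genes, relatives of Gadd45a, Reg3b, Sprr1a, Csrp3, and Ecel1, and inhibitors of axon growth, in all 81 genes, of which 64 could be tested left against right. Called as higher on the left by edgeR were 7, or 10.9%, beside 0.811% of all genes, and lower 0, with a median log2 difference of 0.29 against 0.03 over all genes. Among growth genes these were Tubb2b, a β-tubulin of growing neurons (1.49, adjusted p = 0.0159), and Basp1, a growth cone protein of the same family of membrane-bound regulators as Gap43 (0.81, adjusted p = 0.0391). Among other regeneration genes they were Flrt3, a membrane protein that promotes neurite growth (2.40, adjusted p = 0.0340), Vgf, a neuropeptide precursor (2.52, adjusted p = 0.00924), and Socs3, a feedback inhibitor of Stat3 signaling (2.09, adjusted p = 0.0399). Among the relatives of Gadd45a they were Gadd45g (2.29, adjusted p = 0.0381) and the cell cycle inhibitor Cdkn1a (1.46, adjusted p = 0.0661). In left DRG against sham, 0 of 65 related genes were called by edgeR (21, or 32.3%, had an unadjusted p under 0.05 and were higher, beside 5.9% of all genes, and 2 were lower), and 50, or 76.9%, were higher, beside 48.8% of all genes.

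Close family members were measured beside several of the 10 genes. Whereas Stmn4 was higher on the left by 1.99, the ubiquitous Stmn1 differed by 0.19 (SE 0.19) and the neuronal Stmn3 by 0.02 (SE 0.22). Csrp2 and Csrp1, LIM proteins of smooth muscle and other tissues, differed by −0.57 (SE 0.20) and −0.09 (SE 0.16). The peptidases Ece1 and Mme, of the family of Ecel1, differed by 0.24 (SE 0.16) and −0.41 (SE 0.24). None of these 6 was called, and of the 12 genes of growth inhibition 0 were called, beside 0.962% of all genes. At that share, lists this short would seldom hold a call, so the absence of calls does not set them apart. Among the 12, the smallest edgeR p-values were those of Omg, a myelin-associated inhibitor (−0.62, adjusted p = 0.180), and Plxna4, a semaphorin co-receptor (0.56, adjusted p = 0.270).

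**Figure D5:**
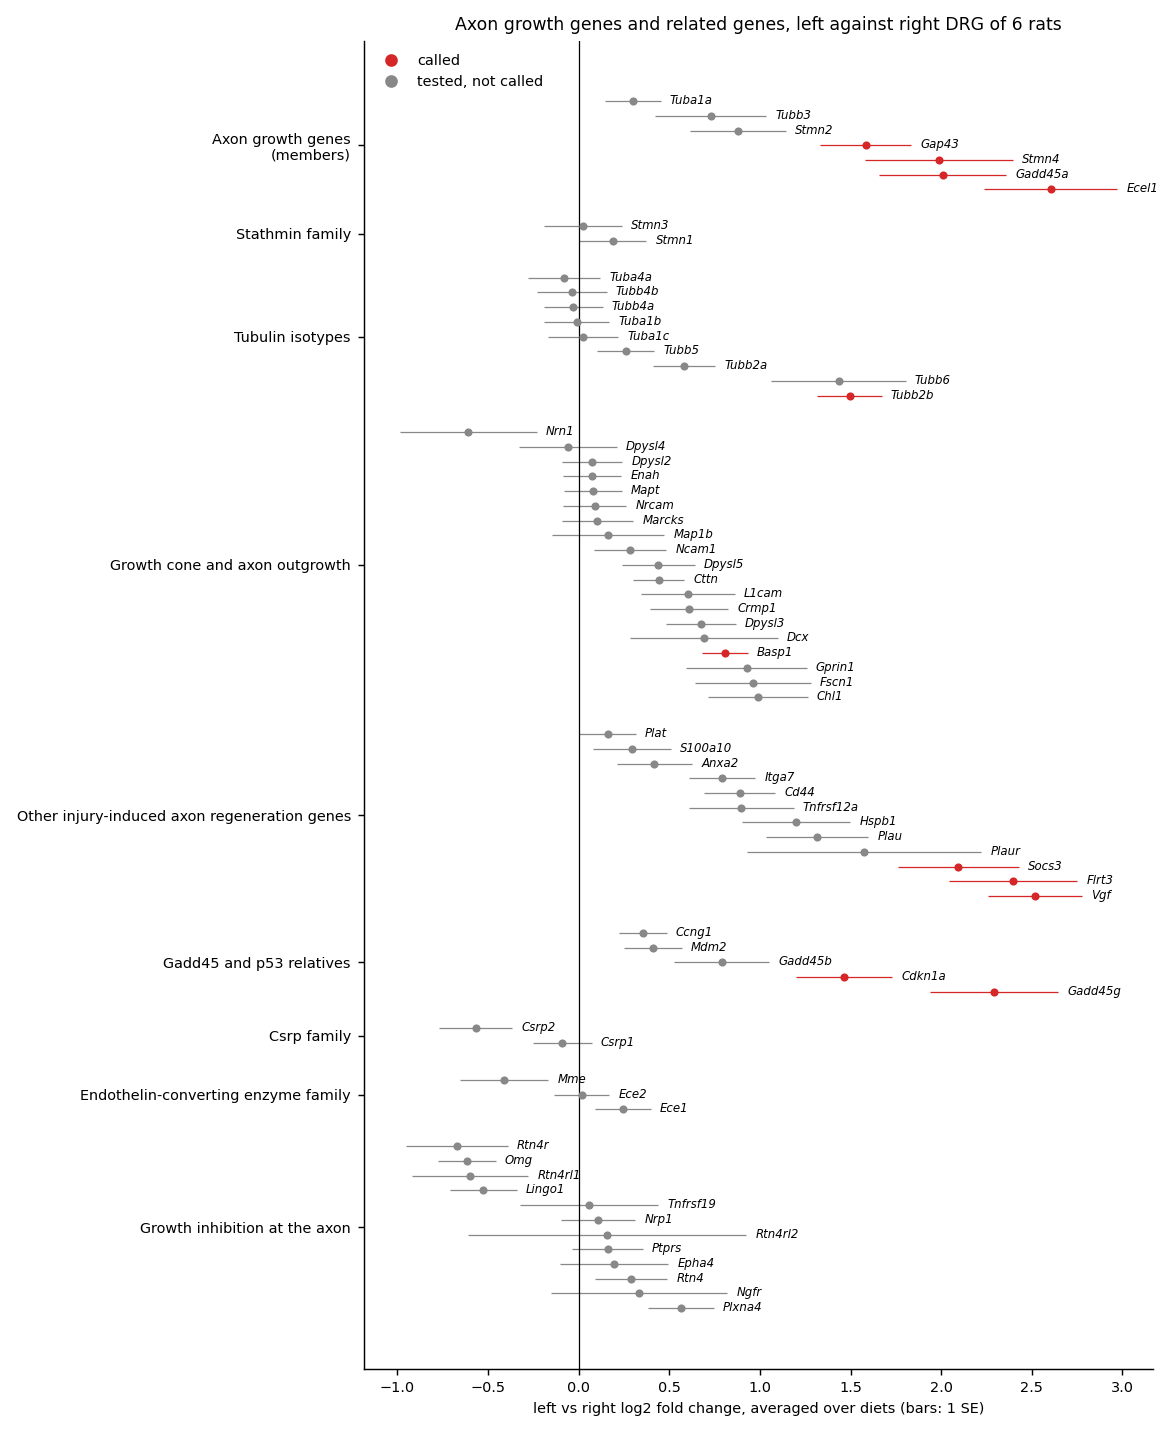
Left against right log2 fold changes, averaged over diets, of the axon growth genes and of related genes by list, with bars of 1 SE and called genes in red. Called genes lie between 0.81 (Basp1) and 2.61 (Ecel1), all to the right of 0. The growth inhibition list has no called gene, where 0.962% of all genes were called.

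As a description over the 20 libraries, which share diets, rats, and tissue admixture, the members did not all vary together. Gap43 had a Pearson r of 0.94 with Sprr1a, 0.89 with Gadd45a, and 0.88 with Reg3b. Among the abundant microtubule genes r was 0.93 between Stmn2 and Tubb3 and 0.89 between Tubb3 and Tuba1a. Gap43 had an r of 0.71 with Stmn2, 0.68 with Tubb3, and 0.73 with Tuba1a. Stmn4 followed Ecel1 at 0.92 and Stmn2 at −0.12. The non-member genes most like the mean of the 7 members that passed the filter in all 20 libraries were Syt4 (r = 0.96), Gal (0.95), Csk (0.94), Cbln2 (0.93), and Rnf19b (0.93), and those most like Gap43 alone were Syt4 (0.96), Flrt3 (0.96), and Adcyap1 (0.95).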

How the data were processed

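RNA from whole DRG of female rats was sequenced after poly-A selection. Per the labels and the study's methods, the authors used fastp for trimming, HISAT2 for alignment, and featureCounts 1.5.0-p3 for counting. The genome build, the strand setting, and the handling of multiply aligned reads are not given in the sources used here. The deposited counts are whole numbers per gene, neither pooled nor scaled (22547190 to 54437581 per library). The FPKM values that the authors deposited equal the count per gene length on DESeq2 size factors. They served here to compare levels between genes and as an alternative scale of the permutation tests. Groups were taken from the sample titles and rats from the library names, which give separate animals, so p-values measure the spread between rats. Left and right DRG with the same rat number deviated together from their group means (r of 0.15 to 0.51, all 6 rats above 0.1). Libraries of equal replicate number from different rats had r of −0.32 to 0.70, so these correlations do not set the pairs of 1 rat apart. The rat was a block in that comparison because both DRG come from the same animal by the library names.

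A gene entered a fit if 90% of its libraries had 10 or more counts, and was tested two-sided by quasi-likelihood in edgeR 4.0.16 on TMM-normalized counts (R 4.3.3), with Benjamini–Hochberg adjustment over all genes tested. Calls followed the study's thresholds, an adjusted p no greater than 0.1 with a change of 1.2-fold or more. Separate fits were made of the 14 left libraries, the 12 libraries of 6 CCI rats, and the 13 sham and right libraries. Single genes were compared as log2(CPM + 1) with exact permutation tests. Alternatives used DESeq2 1.42.0, limma voom (limma 3.58.1), other size factors, filters, pseudocounts, and samples. In simulated counts, 47% of 2-fold and 90% of 4-fold changes were recovered for CCI against sham (14194 genes), and 46% and 96% for left against right (14290 genes). Changes were placed only in genes with high mean counts, so these shares do not cover genes such as Sprr1a and Reg3b. Genes were drawn independently, and no libraries with muscle or spinal cord transcripts were simulated, so recovery in the real libraries was not measured. Promoters came from RefSeq (GRCr8), matched by gene ID. All 10 members are described. Related genes were named where called, up to 4 per list, and otherwise as the 2 per list with the smallest p between sides. The members and lists were chosen with earlier results of these data known.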

Additional observations from a re-analysis of the deposited data

Results flagged for a closer look

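In groups of 4 to 10 values, the highest or lowest value was compared with the rest by Dixon's criterion in 30 groups of values of the members, and 4 were set apart. Chance sets apart about 1 group in 20. Csrp3 in SOD-CT replicate 1, at 164 CPM, stood above the other SOD-CT rats. The other 3 are within-rat differences of FOD-CCI replicate 1, whose DRG held spinal cord markers. Its left minus right log2 difference was the highest of 6 rats for Tubb3, at 2.63. It was the lowest of 6 rats for Csrp3, at −1.52, and for Reg3b, at 0.59.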

How the results depend on the processing

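Of 770 alternative values of member log2 fold changes in the surgery and side comparisons, 680 kept direction and side of the threshold, 62 newly passed it, 24 no longer passed it, and 4 changed sign, all of them Csrp3 on SOD. Csrp3 on SOD became 1.95 (limma voom), 0.14 (replicate block), and 1.96 (without the 5 libraries set apart). It was −0.84 to 1.94 with 1 replicate left out, the highest without SOD-CT replicate 1.

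Percentages beside the next counts are the shares of all genes called. Members called for SOD-CCI against SOD-CT went from 0 to 3 (DESeq2, 4.1%), and for FOD-CCI against FOD-CT from 0 to 1 (DESeq2, 0.145%). Averaged over diets they went from 0 to 3 (DESeq2, 3.29%), 2 (DESeq2 size factors, 0.166%), and 4 (no filter, 0.795%). Leaving out 1 replicate gave 0 to 2 in each of these comparisons, with at most 0.321% (SOD), 0.294% (FOD), and 3.54% (averaged) of all genes called. Left against right averaged over diets, 4 (0.962%) became 7 (no filter, 1.66%) and 0 to 5 with 1 rat left out (7.64% without FOD-CCI replicate 1, which gave 5). On SOD, 1 (0.131%) became 4 (DESeq2, 3.24%), 7 (no filter, 0.801%), and 3 (10 counts in 3 libraries, 0.322%). Sprr1a and Reg3b, and between sides Csrp3, fail the main filter and pass looser ones mainly through left CCI libraries, where they are high. Between sides Sprr1a does so through its left libraries alone. Counts of members called with no filter or with 10 counts in 3 libraries are therefore no added support. The SOD count was 2 by limma voom and 0 to 4 with 1 rat left out. On FOD, 0 (0.0137%) became 6 (DESeq2, 1.81%), 2 (no filter, 0.222%), and 0 to 4 with 1 rat left out. Without the replicate block, the pairing by rat, calls fell to 1 averaged over diets and 0 on SOD. Counts here without a percentage cannot be read against the share of all genes called. The exact permutation test, at or below 0.05 for 8 members between surgery groups, gave 5 to 9 with 1 library left out (chosen after seeing the data), 5 being the value without SOD-CCI replicate 1. Between sides, 4 became 2 as a ratio to pan-neuron markers. The causes were not tested.

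Between diets and in right DRG, uncalled values changed sign. Values without the 5 libraries rest on 1 FOD-CT library, assumed to vary like the other groups. For the interaction, leaving out 1 replicate gave −0.54 to 0.15 for Gap43 (highest without FOD-CCI replicate 1, and 0.04 without FOD-CT replicate 2) and −0.26 to 5.0001 for Csrp3 (lowest without SOD-CT replicate 1). Csrp3 was −0.75 by limma voom, and without the 5 libraries Gap43 was 0.51 and Ecel1 2.19. For FOD-CT against SOD-CT, leaving out 1 replicate gave −0.13 to 1.68 for Stmn4 (lowest without FOD-CT replicate 1) and −4.66 to 0.60 for Csrp3 (highest without SOD-CT replicate 1), and without the 5 libraries Stmn4 was −0.63 and Ecel1 −1.67. For right SOD-CCI against SOD-CT, Ecel1 was 0.30 by limma voom and −1.46 to 0.43 with 1 replicate left out (highest without SOD-CT replicate 2). For right FOD-CCI against FOD-CT, Stmn4 was −0.14 by limma voom, −0.074 without the 5 libraries, and −1.76 to 1.56 with 1 replicate left out (lowest without the right DRG of replicate 1). Ecel1 was 0.87 without the 5 libraries and −2.34 to 0.42 with 1 replicate left out (highest without FOD-CT replicate 1).

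Between sham and CCI groups the replicate numbers belong to different rats, and the numbers as a block changed no other call. Left sham and left CCI libraries of equal number deviated together on FOD (r of 0.25 to 0.49) and not on SOD (−0.07 to 0.08). Right CCI and sham libraries of equal number had r of 0.25 to 0.70 on FOD and −0.09 to 0.44 on SOD. With 3 or 4 rats a group, spread between rats and not counting error limits these comparisons. For genes under 10 counts, such as Sprr1a and Reg3b in 3 of the 7 sham libraries, depth limits the size of a fold change.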
